A study of Mus musculus with 19 samples.

Results

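Levels of the RNAs for the 5 ATG8 proteins and for 5 cargo receptors of selective autophagy were compared in mouse liver. The genes were taken by symbol from the count table: the ATG8 genes Map1lc3a, Map1lc3b, Gabarap, Gabarapl1 and Gabarapl2, and the receptor genes Sqstm1, Nbr1, Optn, Tax1bp1 and Calcoco1. They make up 10 of the 24421 rows of that table, and all 10 were among the 13293 genes that passed the filter on low counts, with 546 to 26015 counts per library. In autophagy, a cell encloses part of its content in a membrane vesicle that then fuses with the lysosome. ATG8 proteins are small ubiquitin-like proteins that are joined to lipids of that membrane and form an LC3 branch and a GABARAP branch. Cargo receptors bind an ATG8 protein with a short sequence stretch and a cargo, such as ubiquitinated protein, with another part, and several of them are degraded with their cargo. In liver, autophagy is known to be active during fasting, when it supplies amino acids and breaks down glycogen and lipid droplets, and to be restrained by insulin and amino acids after a meal. RNA levels of these genes do not measure how much autophagy takes place.

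The 19 liver libraries fell into 4 groups of mice fed a purified normal diet. Antisense oligonucleotides (ASOs, short nucleic acid strands that lower the RNA they pair with) had been injected 2 times per week over 3 weeks. One was a control, and the other was directed at Plin5, the gene of the lipid droplet coat protein perilipin 5. Livers were from mice fasted overnight (control ASO, n = 4, numbered 1, 3, 4 and 5; PLIN5 ASO, n = 5) or fasted and then re-fed for 4 h (control ASO, n = 5; PLIN5 ASO, n = 5). Whether libraries of a group come from separate mice is not stated, so p-values measure the spread between these libraries, which may be technical. No other oligonucleotide against Plin5 is named, so effects of lower Plin5 and other effects of the oligonucleotide cannot be told apart. The sources used here give no strain, age or sex.

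Libraries held 24.9 to 66.9 M (mega) counts, and Plin5 stood at 27.3 to 51.8 CPM in control ASO libraries and 3.91 to 13.1 CPM in PLIN5 ASO libraries. CPM are counts per 1e6 of a library size scaled by the trimmed mean of M-values. All 8 hepatocyte markers examined were present, with a summed level of 90888 to 159185 CPM. Fasted PLIN5 ASO 3 and 5 and re-fed control ASO 3 and 5 stood apart by the clock genes Arntl (14.6 to 45.0 CPM, against 0.566 to 4.87 CPM elsewhere) and Dbp (1.82 to 18.9 CPM, against 36.3 to 160 CPM) and are called the clock-shifted libraries. Fasted PLIN5 ASO 1, 3 and 5 had 2174 to 4860 CPM of the acute phase gene Saa1, against 40.6 to 469.8 CPM in the other libraries, and 222 to 540 CPM of Lcn2, against 5.90 to 27.5 CPM. Of 8 acute phase genes, 6 rose with PLIN5 ASO in fasted liver (Lcn2 5.02, Apcs 1.87, Serpina3n 0.74 and Saa2 5.77 as log2 fold changes came first) and 6 fell on re-feeding under PLIN5 ASO (Lcn2 -3.68, Saa2 -5.30, Orm2 -2.22 and Saa1 -4.12). Of 11 clock genes, Npas2 (4.62) and Arntl (3.38) were called higher in re-fed than in fasted control ASO liver (13.2% of all genes were called). Cry1 (1.34, adjusted p = 0.0636) and Nr1d1 (-1.29, adjusted p = 0.0820) came next. Arntl stood at 23.8 and 45.0 CPM in the clock-shifted re-fed control ASO 3 and 5. Re-fed control ASO 1, 2 and 4 held 1.25, 3.47 and 0.633 CPM of it, against 0.841 to 2.37 CPM in fasted control ASO. With PLIN5 ASO in fasted liver, 2 of 12 Kupffer cell and macrophage markers and 3 of 10 stellate cell and fibroblast markers rose. None of 5 tested neutrophil and monocyte, 7 lymphocyte, 10 endothelial and 5 cholangiocyte markers was called there. Over all genes tested, 1.17% were called with PLIN5 ASO in fasted liver and 8.64% on re-feeding under PLIN5 ASO. Fasted control ASO 3 and 4 differed less than any other pair within a group (chi-square per degree of freedom 3.23, next pair 18.7), which is more than sampling noise, and were kept as 2 libraries.

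Per transcript length, Gabarap was the most abundant of the 10 RNAs and Calcoco1, which encodes a receptor for parts of the endoplasmic reticulum and the Golgi, the least. The authors' FPKM (fragments scaled to transcript length and library size), averaged over 19 libraries, were 328 for Gabarap, 245 for Gabarapl1, 150 for Sqstm1, 57.4 for Map1lc3b, 44.2 for Tax1bp1, 43.6 for Gabarapl2, 42.8 for Nbr1, 33.4 for Optn, 31.9 for Map1lc3a and 16.7 for Calcoco1. Some neighbours in this order did not differ beyond their spread. Tax1bp1 was above Gabarapl2 in 9 of 19 libraries, Gabarapl2 above Nbr1 in 11 and Optn above Map1lc3a in 12. Gabarapl1 was above Sqstm1, Sqstm1 above Map1lc3b and Map1lc3a above Calcoco1 in 19 of 19. Gabarap exceeded Gabarapl1 in 17 of 19 libraries, and the exceptions were fasted control ASO 1 and 5.

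Gabarap and Gabarapl1 together held most of the ATG8 RNA, at similar levels in fasted control ASO liver and with Gabarap ahead in the other groups. Summed over the 5 ATG8 genes, the level was 802 FPKM ± 38.5 (SD, n = 4) in fasted control ASO liver and 616 FPKM ± 45.1 (SD, n = 5) after re-feeding. With PLIN5 ASO the sum was 750 FPKM ± 27.8 (SD, n = 5) in fasted and 674 FPKM ± 46.1 (SD, n = 5) in re-fed liver. The fasted control libraries (748 to 838 FPKM) lay above all re-fed control libraries (551 to 670 FPKM). In CPM, 9.12% of all genes tested lay lower without overlap in that comparison. With PLIN5 ASO the ranges of the sum overlapped (724 to 794 and 632 to 744 FPKM). Differences in the sum, also between the ASOs in its response to re-feeding, were not tested. Gabarapl1 made up 41.5% ± 1.88 (SD, n = 4) of that sum in fasted control ASO liver and 35.3% ± 1.84 (SD, n = 5) in fasted PLIN5 ASO liver. After re-feeding its share was 31.4% ± 3.54 (SD, n = 5) with control ASO and 30.3% ± 5.22 (SD, n = 5) with PLIN5 ASO. Gabarap, in turn, made up 40.5% ± 1.85 (SD, n = 4), 45.3% ± 1.86 (SD, n = 5), 49.5% ± 2.56 (SD, n = 5) and 51.0% ± 4.83 (SD, n = 5) in the same order of groups. The other 3 ATG8 genes each held a mean share of 3.97% to 8.81% in every group. In liver RNA as a whole, fewer cells of a type and less RNA per cell cannot be told apart.

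**Figure D1:**
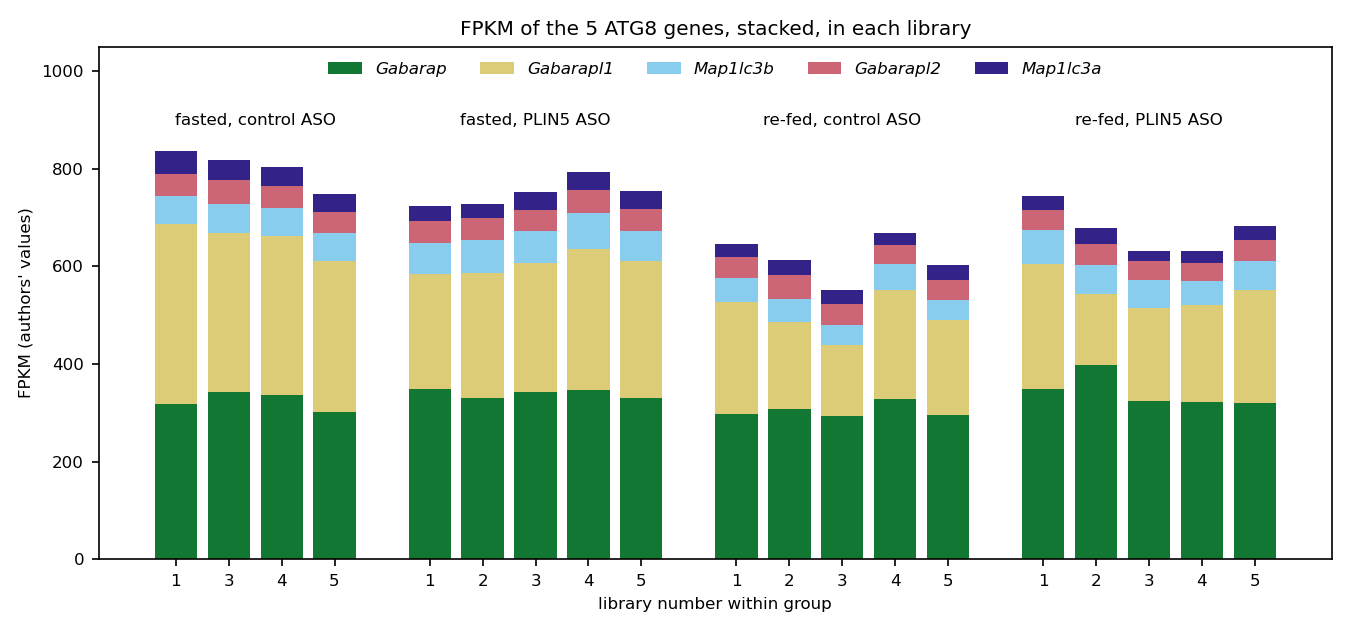
Stacked bars give the authors' FPKM of the 5 ATG8 genes in each of the 19 libraries, numbered within their group on the x axis. The stack is lowest in re-fed control ASO 3 (551 FPKM) and highest in fasted control ASO 1 (838 FPKM), and the Gabarapl1 segment shrinks most between fasted and re-fed control ASO.

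The genes lie on 5 chromosomes of GRCm38 by the GENCODE annotation. Map1lc3a (chromosome 2, 155276297 to 155278073, plus strand), Map1lc3b (chromosome 8, 121590361 to 121598760, plus), Gabarap (chromosome 11, 69991143 to 69994951, plus), Gabarapl1 (chromosome 6, 129533160 to 129542346, plus) and Gabarapl2 (chromosome 8, 111940703 to 111953612, plus) are the ATG8 genes. Sqstm1 (chromosome 11, 50199366 to 50210827, minus), Nbr1 (chromosome 11, 101552149 to 101581951, plus), Optn (chromosome 2, 5020642 to 5064051, minus), Tax1bp1 (chromosome 6, 52713729 to 52766780, plus) and Calcoco1 (chromosome 15, 102706777 to 102722178, minus) are the receptor genes. Exons of Sqstm1, Map1lc3b and Gabarapl1 overlap exons of Mrnip, Zcchc14 and 1700101I11Rik on the opposite strand. The sources used here do not say whether strand was used in counting, so reads in these overlaps cannot be assigned. Zcchc14 itself stood at 29.1 to 38.0 CPM and 1700101I11Rik at 0 to 0.20 CPM. Optn and Tax1bp1 overlap exons of the genes 4930551O13Rik and Gm43966 in the same way.

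RefSeq promoters (GRCm38.p6, 250 bases before to 50 after the start) were found for 9 of the 10 genes and searched on both strands for 7 motifs. For Gabarapl1, Map1lc3b and Optn, which fell on re-feeding under control ASO, the bases before the annotated starts are shown. Map1lc3a also fell, but no promoter was found for it. Capitals mark the letters TAAACA, the core that forkhead factors such as FoxO proteins bind.

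Gabarapl1 (chr6:129532942-129533159, plus strand): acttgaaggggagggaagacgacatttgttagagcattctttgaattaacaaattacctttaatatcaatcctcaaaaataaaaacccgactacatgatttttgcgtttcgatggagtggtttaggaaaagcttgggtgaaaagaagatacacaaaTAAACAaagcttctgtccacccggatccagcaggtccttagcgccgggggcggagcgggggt

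Map1lc3b (chr8:121590188-121590360, plus strand): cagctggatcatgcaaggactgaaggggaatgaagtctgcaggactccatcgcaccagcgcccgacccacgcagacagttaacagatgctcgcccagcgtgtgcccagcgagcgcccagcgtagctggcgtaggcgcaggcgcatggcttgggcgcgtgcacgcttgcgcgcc

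Optn (chr2:5064118-5064367, minus strand): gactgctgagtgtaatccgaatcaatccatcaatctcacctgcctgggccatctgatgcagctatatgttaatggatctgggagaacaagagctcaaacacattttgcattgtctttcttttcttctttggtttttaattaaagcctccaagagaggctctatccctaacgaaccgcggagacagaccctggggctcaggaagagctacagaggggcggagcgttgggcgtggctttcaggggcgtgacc

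The Gabarapl1 promoter holds TAAACA once, 94 bases before its RefSeq start, and no other member's promoter holds it. This core was added to the motifs after the members' promoters had been seen, and 13.4% of all 32851 promoters of this length hold it. It overlaps the longer FoxO motif GTAAACA, which 3.65% of promoters hold and no member's does. The E-box CACGTG (7.15% of promoters), the CLEAR element (0.326%), which is that E-box preceded by GT and followed by AC, and the cyclic AMP response element TGACGTCA (1.79%) were in no member's promoter either. The antioxidant response element TGACNNNGC (12.4% of promoters) lies 4 bases after the RefSeq start of Map1lc3b and in 1 of the 2 promoters of Tax1bp1. The Sp1 motif GGGGCGGGG (11.4%) lies in the promoters of Gabarapl2, 30 bases before its RefSeq start, and of Sqstm1 and Calcoco1, 54 bases before theirs. A match describes letters, not binding.

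Re-feeding against fasting under control ASO asks how these genes differ after a meal where Plin5 was not targeted. The labels give no time of sampling, so in the re-feeding comparisons the meal and the time of day were not separated. All clock-shifted libraries in the comparison under control ASO are re-fed ones. Gabarapl1, Map1lc3a, Map1lc3b and Optn fell, by 0.36 to 0.83 on the log2 scale, and none of the 10 rose. By edgeR's quasi-likelihood test with Benjamini-Hochberg adjustment, 4 of 10 members were lower, where 6.82% of all genes tested were called lower and 13.2% in either direction. These 4 were also the members whose groups did not overlap, against 9.12% of all genes that lay lower without overlap. The log2 fold change was negative for 9 of 10 members, with a median of -0.31, against a median of 0.03 over all genes tested.

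Gabarapl1, a GABARAP-branch protein involved in closing vesicles and joining them to lysosomes, fell most. It stood at 619, 552, 557 and 521 CPM in fasted control ASO 1, 3, 4 and 5. In re-fed control ASO 1 to 5 it stood at 368, 283, 246, 368 and 319 CPM. Every re-fed library lay far below every fasted one. The means were 562 CPM ± 41.3 (SD, n = 4) and 317 CPM ± 53.5 (SD, n = 5), or -0.83 as a fitted log2 fold change (SE 0.14, 95% confidence interval, CI, -1.11 to -0.54, adjusted p = 0.000623). The call was kept in 21 of 21 alternative settings.

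Map1lc3a, which encodes the LC3A protein of the LC3 branch, fell as well. It stood at 46.9, 39.1, 37.4 and 35.7 CPM in the fasted control libraries and at 23.5, 28.8, 27.1, 25.1 and 29.3 CPM in the re-fed ones. The lowest fasted library was above the highest re-fed one. The log2 fold change was -0.57 (SE 0.11, 95% CI -0.81 to -0.33, adjusted p = 0.00292), and the call was kept in 21 of 21 alternatives. Map1lc3a has a short transcript, and short transcripts were lower in this comparison: across 12805 genes with a known length, which are not independent replicates, the log2 fold change rose with length (Spearman's rho 0.234). With that trend taken out the change was -0.45 (adjusted p = 0.0102).

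Map1lc3b encodes LC3B, the ATG8 protein most used to mark autophagic vesicles. Its 4 fasted control libraries were tightly grouped, at 96.8, 102, 98.0 and 97.1 CPM. The re-fed libraries held 80.3, 76.6, 67.7, 90.8 and 67.7 CPM, all below the fasted ones, with the lowest values in the clock-shifted libraries 3 and 5. The log2 fold change was -0.36 (SE 0.10, adjusted p = 0.0174), and 18 of 21 alternatives kept the call. It was lost without fasted control ASO 3 (-0.35, adjusted p = 0.0546) without the clock-shifted libraries (-0.26, adjusted p = 0.119) and with limma on unfiltered FPKM (-0.32, adjusted p = 0.0606).

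Gabarap and Gabarapl2, the remaining GABARAP-branch genes, showed smaller differences that did not pass the test. Gabarap stood at 315 to 360 CPM in fasted and 295 to 335 CPM in re-fed control libraries (log2 fold change -0.15, 95% CI -0.31 to 0.01, adjusted p = 0.213). Gabarapl2 stood at 38.6 to 44.7 and 32.6 to 40.9 CPM (log2 fold change -0.17, 95% CI -0.33 to -0.01, adjusted p = 0.154). With the length trend taken out the differences were smaller, at -0.04 for Gabarap (adjusted p = 0.683) and -0.08 for Gabarapl2 (adjusted p = 0.487).

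Among the receptors, Optn, which encodes optineurin, a receptor of ubiquitinated mitochondria and bacteria, was lower after re-feeding. It stood at 113, 102, 105 and 123 CPM in the fasted control libraries. After re-feeding it stood at 101, 91.1, 71.1, 90.0 and 64.5 CPM. All re-fed libraries were below the fasted ones, the highest of them by little, and the clock-shifted libraries 3 and 5 were lowest. The log2 fold change was -0.41 (SE 0.11, adjusted p = 0.0229), and 14 of 21 alternatives kept the call. It was lost without fasted control ASO 1 (-0.40, adjusted p = 0.0542) or 5 (-0.36, adjusted p = 0.0780), without re-fed control ASO 3 (-0.36, adjusted p = 0.0621) or 5 (-0.33, adjusted p = 0.0537), without the clock-shifted libraries (-0.24, adjusted p = 0.0962), in a fit of only the groups compared (-0.40, adjusted p = 0.0637) and with limma on unfiltered FPKM (-0.37, adjusted p = 0.0669).

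The other receptors did not pass edgeR's test. Calcoco1 ran parallel to Optn: re-fed control libraries held 56.9, 41.1, 28.1, 49.2 and 36.0 CPM, lowest again in 3 and 5, against 53.0, 52.8, 53.6 and 64.1 CPM in the fasted ones. The groups overlapped through re-fed control ASO 1 (log2 fold change -0.40, 95% CI -0.71 to -0.10, adjusted p = 0.0709), and 4 of 21 alternatives made a call. Without the clock-shifted libraries the difference was -0.19 (adjusted p = 0.346). Tax1bp1, whose product binds ubiquitinated proteins, stood at 150 to 165 CPM in fasted and 139 to 154 CPM in re-fed control libraries (log2 fold change -0.14, adjusted p = 0.104). Of 21 alternatives, only DESeq2 called Tax1bp1 lower (-0.15, adjusted p = 0.0430). Nbr1, a receptor related to p62 in its domains, was the member that leaned upwards, with a fasted mean of 204 CPM ± 13.3 (SD, n = 4) and a re-fed mean of 217 CPM ± 15.3 (SD, n = 5) (log2 fold change 0.09, 95% CI -0.09 to 0.27, adjusted p = 0.542).

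Sqstm1 encodes p62, the best known receptor of ubiquitinated protein, which also binds KEAP1, the inhibitor of the transcription factor NRF2. It stood at 369, 325, 325 and 316 CPM in the fasted control libraries and at 270, 252, 283, 261 and 334 CPM after re-feeding. Only re-fed control ASO 5, a clock-shifted library, reached into the fasted range (log2 fold change -0.25, 95% CI -0.50 to -0.0047, adjusted p = 0.165). Without the clock-shifted libraries the difference was -0.35 and passed (adjusted p = 0.0350).

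**Figure D2:**
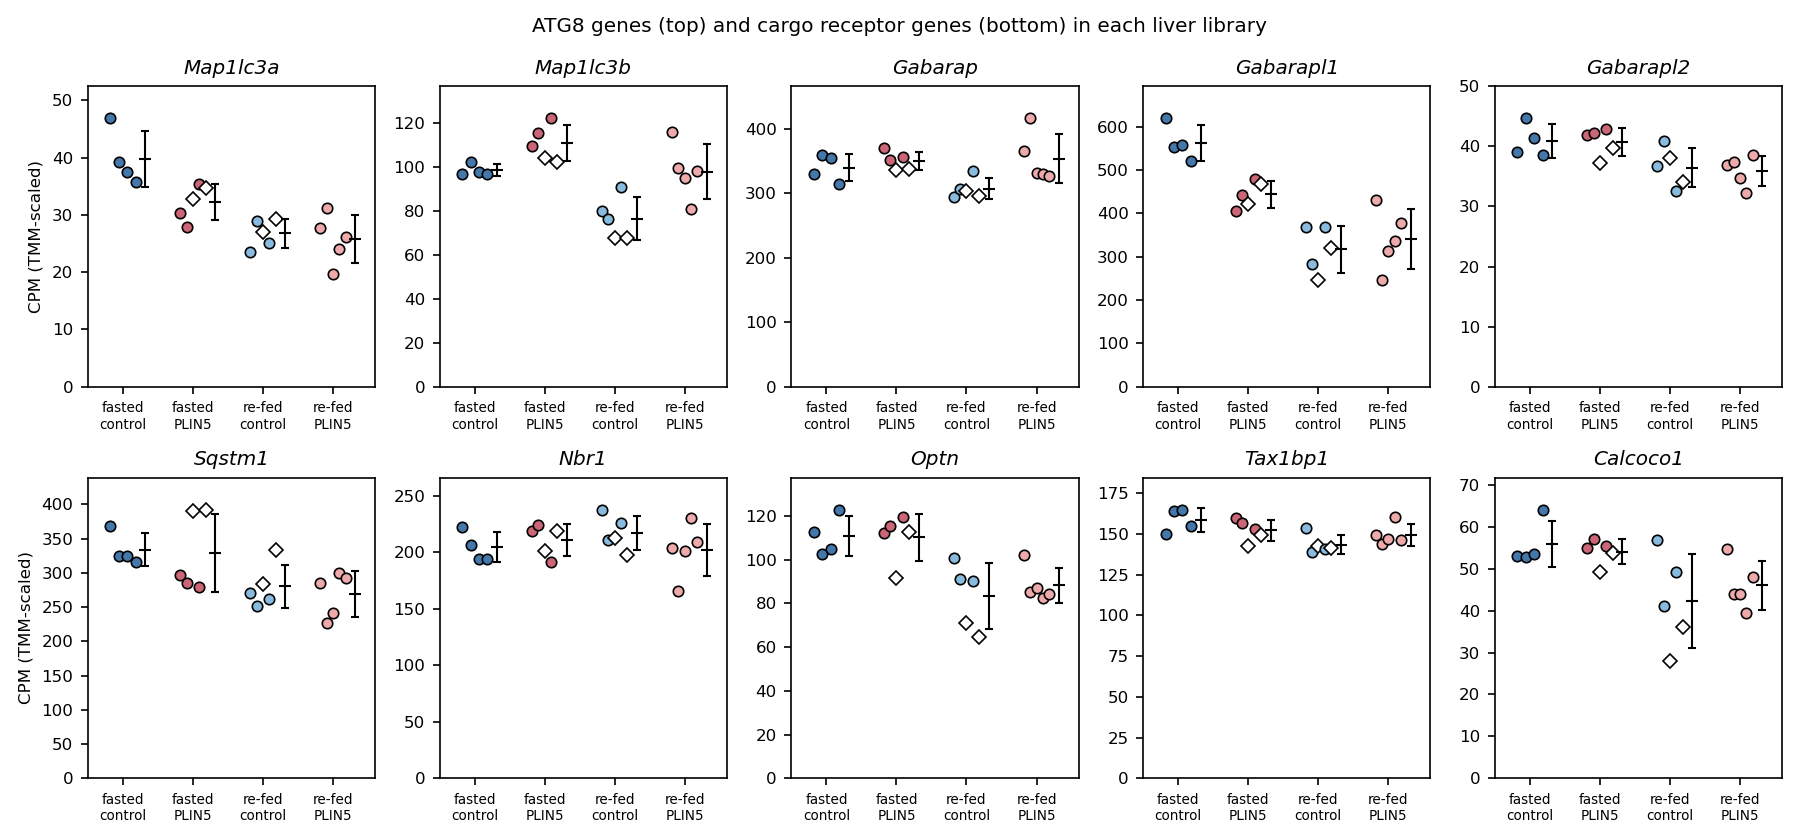
Each point is 1 library, in CPM of the scaled library size, for the 5 ATG8 genes (top) and the 5 receptor genes (bottom). Diamonds are the 4 clock-shifted libraries and bars are the mean and SD of each group. Gabarapl1 and Map1lc3a are separated between fasted and re-fed control ASO, and Sqstm1 is split within fasted PLIN5 ASO, with the 2 diamonds at 390 and 392 CPM.

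Under PLIN5 ASO none of the 10 re-feeding differences passed edgeR's test, where 8.64% of all genes tested were called. At an unadjusted p under 0.05 there were 5 members (23.5% of all genes), and DESeq2 called 3: Gabarapl1, Map1lc3a and Optn. The median log2 fold change of the 10 was -0.21, against 0.00 over all genes tested, and 9 of 10 were negative. No member's groups were free of overlap (7.57% of all genes were).

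Gabarapl1 went from 406, 443, 421, 480 and 469 CPM in fasted PLIN5 ASO 1 to 5 to 432, 245, 314, 336 and 379 CPM in re-fed PLIN5 ASO 1 to 5. Re-fed library 1 lay within the fasted range and the other 4 below it. The log2 fold change was -0.38 (SE 0.13, 95% CI -0.65 to -0.11, adjusted p = 0.0716), and it passed without re-fed PLIN5 ASO 1 (-0.48, adjusted p = 0.0224). Map1lc3a stood at 30.3, 27.9, 32.8, 35.4 and 34.6 CPM in fasted and 27.7, 31.2, 19.8, 24.0 and 26.2 CPM in re-fed PLIN5 ASO liver. Again 4 of 5 re-fed libraries lay below the fasted range. Its log2 fold change was -0.32 (SE 0.11, adjusted p = 0.0709), and it passed without re-fed PLIN5 ASO 2 (-0.40, adjusted p = 0.0268) and with the length trend taken out (-0.35, adjusted p = 0.0334).

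Optn had the smallest adjusted p of the receptors here. Fasted PLIN5 ASO libraries held 112, 115, 91.7, 119 and 112 CPM and re-fed ones 102, 85.3, 86.8, 82.6 and 84.3 CPM. Fasted library 3 and re-fed library 1 brought the groups into contact (log2 fold change -0.32, SE 0.11, adjusted p = 0.0700). Optn passed without fasted PLIN5 ASO 3 (-0.38, adjusted p = 0.0388), without re-fed PLIN5 ASO 1 (-0.38, adjusted p = 0.0419) and without the clock-shifted libraries (-0.39, adjusted p = 0.00720). Map1lc3b (-0.18, adjusted p = 0.250), Gabarapl2 (-0.18, adjusted p = 0.130), Calcoco1 (-0.23, adjusted p = 0.324), Nbr1 (-0.06, adjusted p = 0.693), Tax1bp1 (-0.03, adjusted p = 0.803) and Gabarap (0.01, adjusted p = 0.934) did not pass. Sqstm1 stood at -0.29 (adjusted p = 0.120), and at -0.10 (adjusted p = 0.592) without the clock-shifted libraries.

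The difference between the re-feeding effects, tested as an interaction, passed for 0 of 10 members (0.0226% of all genes tested; 0 by DESeq2). At an unadjusted p under 0.05 there was 1 member (15.0% of all genes). This was Gabarapl1, with a difference of 0.45 on the log2 scale (SE 0.19, 95% CI 0.06 to 0.84, adjusted p = 0.278). For Map1lc3a it was 0.25 (95% CI -0.08 to 0.58), for Map1lc3b 0.19 (-0.09 to 0.46) and for Optn 0.09 (-0.24 to 0.42). A different response to re-feeding under PLIN5 ASO was therefore not shown for any member, and these intervals do not show that the responses were alike.

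**Figure D3:**
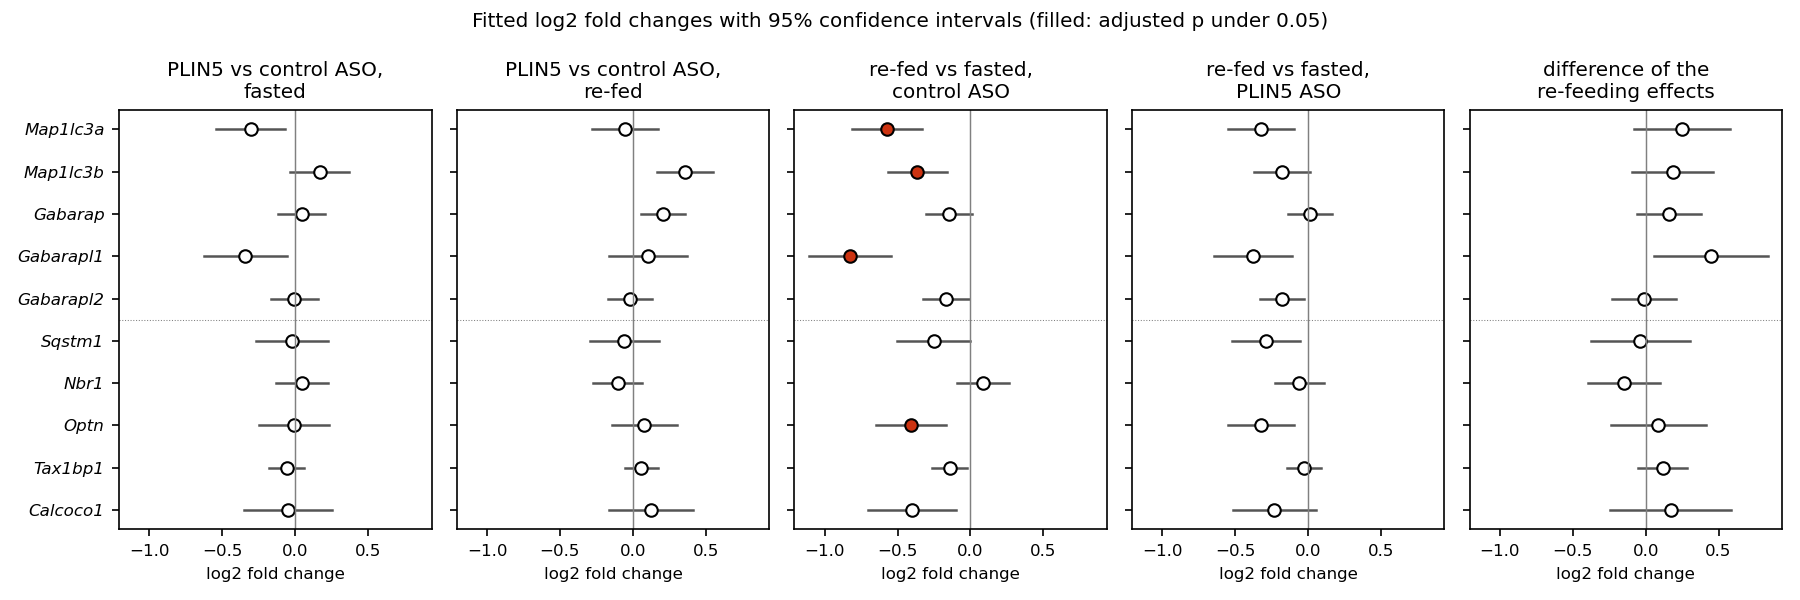
Fitted log2 fold changes with 95% CIs (x axis) for the 10 genes (rows, ATG8 genes above the dotted line) in 4 comparisons and for the difference of the re-feeding effects. The only filled points, adjusted p under 0.05, are Map1lc3a, Map1lc3b, Gabarapl1 and Optn in the comparison of re-fed with fasted control ASO.

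PLIN5 ASO against control ASO in fasted liver asks whether the oligonucleotide changes these genes during a fast. None of the 10 passed by edgeR or DESeq2, where edgeR called 1.17% of all genes tested. At an unadjusted p under 0.05 there were 2 members (15.1% of all genes). These were Gabarapl1 and Map1lc3a, and in both all 5 PLIN5 ASO libraries lay below all 4 control libraries, as in 4.26% of all genes. Under PLIN5 ASO the mean of Gabarapl1 was 444 CPM ± 31.1 (SD, n = 5), against the control mean of 562 CPM given above, or -0.34 as a fitted log2 fold change (SE 0.14, 95% CI -0.62 to -0.06, adjusted p = 0.232). Map1lc3a averaged 32.2 CPM ± 3.11 (SD, n = 5) and 39.8 CPM ± 4.92 (SD, n = 4), or -0.31 as a fitted log2 fold change (SE 0.11, 95% CI -0.54 to -0.07, adjusted p = 0.202). Its groups were only just separate, with the highest PLIN5 ASO library at 35.4 CPM and the lowest control at 35.7 CPM. Map1lc3b pointed the other way, with 4 of 5 PLIN5 ASO libraries above every control (log2 fold change 0.17, 95% CI -0.03 to 0.37, adjusted p = 0.436). This comparison and the re-feeding comparison under control ASO share the fasted control libraries.

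Sqstm1 split the fasted PLIN5 ASO group. Libraries 1, 2 and 4 held 296, 286 and 280 CPM, below all 4 controls (316 to 369 CPM). Libraries 3 and 5 held 390 and 392 CPM, above all of them. Libraries 3 and 5 are the clock-shifted ones, and the summed level of 12 Kupffer cell and macrophage markers was highest in them, at 480 and 340 CPM against 187 to 241 CPM in the other 3 and 165 to 193 CPM in the controls. The count-table row for Mrnip, the gene on the opposite strand of Sqstm1, stood at 11.3 and 9.21 CPM in libraries 3 and 5, at 4.18 to 6.36 CPM in the other 3 and at 3.79 to 10.9 CPM in the controls, highest in fasted control ASO 1. The part of these in the Sqstm1 values was not tested. Over the whole group Sqstm1 had a log2 fold change of -0.02 (95% CI -0.27 to 0.23, adjusted p = 0.953), and without the clock-shifted libraries one of -0.22 (adjusted p = 0.344).

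For the remaining members, Gabarap, Gabarapl2, Nbr1, Optn, Tax1bp1 and Calcoco1, the fitted differences in fasted liver were between -0.06 and 0.04 on the log2 scale. The widest of their 95% CIs was that of Calcoco1, from -0.35 to 0.26. Summed stellate cell and fibroblast markers (10 genes) were 174 to 269 CPM in fasted PLIN5 ASO and 135 to 172 CPM in fasted control libraries. No marker of either list was at 0 in every library.

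After re-feeding, the comparison of both ASOs asks whether the oligonucleotide changes these genes in the fed state. None of the 10 passed edgeR's test, where 1.38% of all genes tested were called. At an unadjusted p under 0.05 there were 2 members (and 2527 of all 13293 genes), Map1lc3b and Gabarap, both higher, and DESeq2 called Map1lc3b. Map1lc3b stood at 116, 99.8, 95.2, 80.7 and 98.4 CPM in re-fed PLIN5 ASO 1 to 5, against 80.3, 76.6, 67.7, 90.8 and 67.7 CPM in re-fed control ASO. Apart from PLIN5 ASO 4, each was above every control. The log2 fold change was 0.36 (SE 0.09, 95% CI 0.16 to 0.55, adjusted p = 0.0554). It passed without re-fed control ASO 4 (0.42, adjusted p = 0.0262) or re-fed PLIN5 ASO 4 (0.42, adjusted p = 0.0309), and was 0.25 (adjusted p = 0.218) without the clock-shifted libraries.

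Gabarap stood at 365, 416, 331, 330.2 and 327 CPM in re-fed PLIN5 ASO 1 to 5. The re-fed control libraries held 295, 306, 304, 335 and 297 CPM. Libraries 1 and 2 of PLIN5 ASO were above every control and the other 3 within the control range (log2 fold change 0.20, SE 0.07, adjusted p = 0.139). Short transcripts were higher in this comparison (Spearman's rho of log2 fold change with length -0.340 across 12805 genes), and with that trend taken out Gabarap differed by 0.08 (adjusted p = 0.549) and Map1lc3b by 0.33 (adjusted p = 0.118). The other 8 members lay between -0.10 (Nbr1) and 0.12 (Calcoco1).

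Tax1bp1 varied least over the libraries and Gabarapl1, Map1lc3a and Calcoco1 most. The highest library was 1.18 times the lowest for Tax1bp1 over all 19, 2.28 times for Calcoco1, 2.37 times for Map1lc3a and 2.52 times for Gabarapl1. The coefficient of variation between libraries of a group reached 26.5% for Calcoco1 in re-fed control ASO, against 5.52% in fasted PLIN5 ASO. For Gabarapl1 it was 7.34% and 7.0% in the fasted groups and 16.9% and 20.5% in the re-fed groups with control and PLIN5 ASO.

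Calls among genes that share the pathway went in both directions on re-feeding under control ASO. Of 13 genes for processing and conjugation of ATG8 proteins, 2 rose and 1 fell (median log2 fold change -0.11). Over all genes tested, 13.2% were called in this comparison and 8.64% on re-feeding under PLIN5 ASO. Atg4d, a protease that trims ATG8 proteins, fell (-0.48, SE 0.09, adjusted p = 0.00140). Its relative Atg4c (0.33, SE 0.10, adjusted p = 0.0364) and Tecpr1, whose product helps vesicles meet lysosomes (0.38, SE 0.12, adjusted p = 0.0387), rose, and Wipi1, a lipid-binding protein gene of early vesicles, stood at 0.47 (adjusted p = 0.0502). The 3 calls came down to 1 without fasted control ASO 1, 3, 4 or 5, in a fit of only the groups compared and with no filter on low counts. None of the 13 was called on re-feeding under PLIN5 ASO or in the other comparisons, and 1 was for re-feeding under PLIN5 ASO without fasted PLIN5 ASO 3, re-fed PLIN5 ASO 4 or the clock-shifted libraries.

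On re-feeding under control ASO, other receptors and adaptors fell in 4 of 18 tested genes and rose in none (median -0.08). Of all genes tested, 6.82% were called lower there. Tex264 (-0.60, SE 0.12, adjusted p = 0.00254) and Rtn3 (-0.31, SE 0.07, adjusted p = 0.00398) encode receptors for the endoplasmic reticulum. Phb2 (-0.44, SE 0.10, adjusted p = 0.00664) encodes an inner-membrane receptor of mitochondria, and Stbd1 (-0.51, SE 0.13, adjusted p = 0.0108) a glycogen-binding protein that binds Gabarapl1. Under PLIN5 ASO, Stbd1 fell again (-0.55, SE 0.12, adjusted p = 0.00645), the 1 call of 18 where 8.64% of all genes were called. It held 116 CPM ± 6.04 (SD, n = 5) in fasted and 78.8 CPM ± 14.3 (SD, n = 5) in re-fed PLIN5 ASO liver. There Ncoa4 stood at 0.28 (adjusted p = 0.0729), Nufip1 at 0.34 (adjusted p = 0.0800) and Atl3 at -0.18 (adjusted p = 0.0939). Leaving out fasted PLIN5 ASO 2 gave 2 calls there, and leaving out the clock-shifted libraries 3. In the remaining comparisons 0 of 18 were called, with 1 in re-fed liver by DESeq2 and without re-fed control ASO 1 or re-fed PLIN5 ASO 4.

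**Figure D4:**
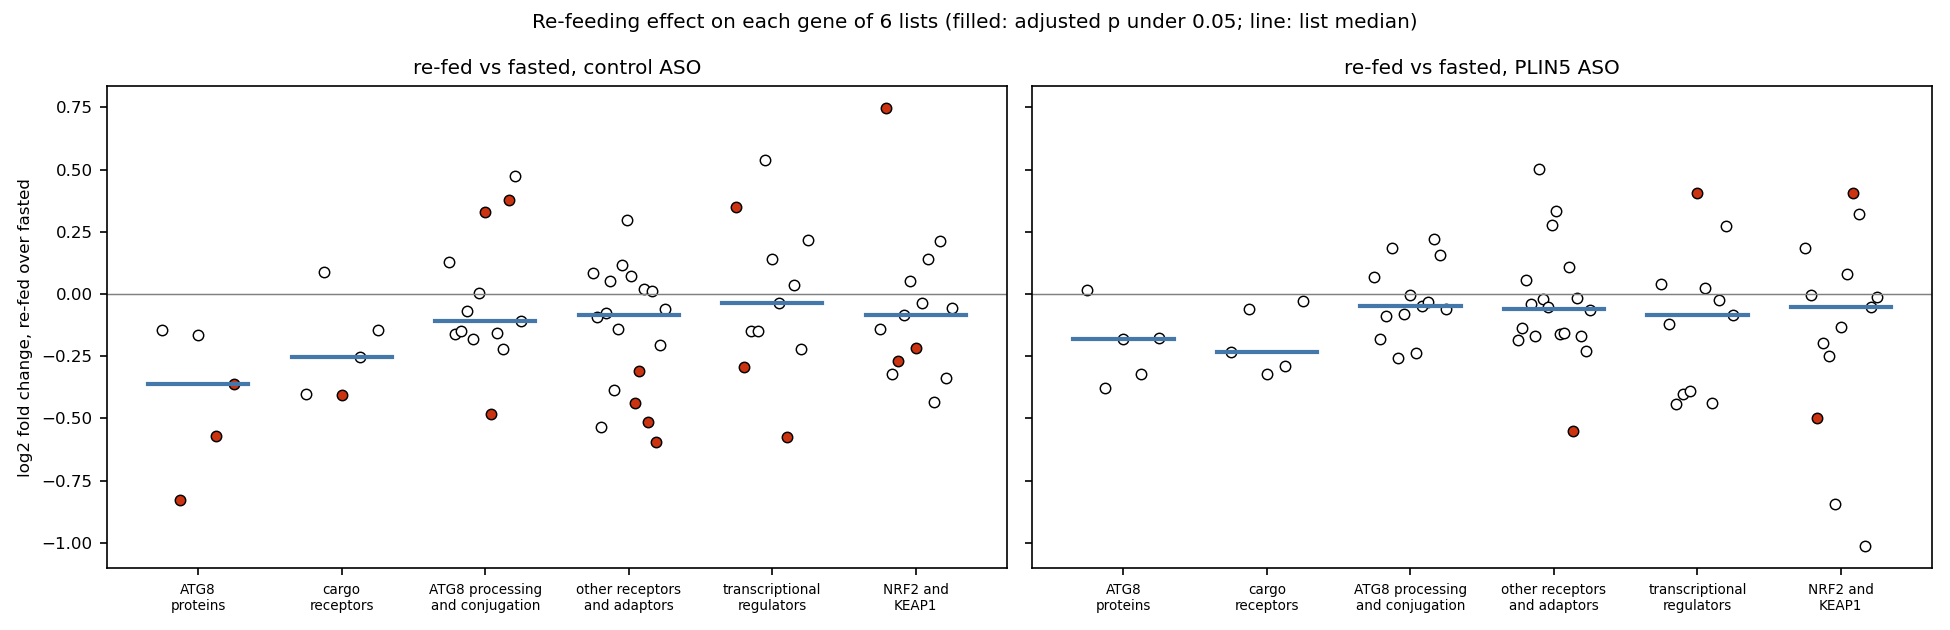
Log2 fold changes of re-fed over fasted liver for each tested gene of 6 lists, with control ASO (left) and PLIN5 ASO (right); filled points have an adjusted p under 0.05 and lines are list medians. The ATG8 genes have the lowest median on the left (-0.36), and Nfe2l2 is in both lists at the right of each panel.

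Among 11 transcriptional regulators of autophagy genes, 3 were called on re-feeding under control ASO (median -0.04), where 13.2% of all genes tested were called. Creb1 rose (0.35, SE 0.09, adjusted p = 0.0153), and Ppara (-0.57, SE 0.15, adjusted p = 0.0178) and Crtc2, a CREB coactivator (-0.29, SE 0.10, adjusted p = 0.0469), fell. The 3 calls came down to 1 without fasted control ASO 1 and without the clock-shifted libraries. Zkscan3 stood at 0.22 (adjusted p = 0.185). Nfe2l2, the gene of NRF2, was the 1 of 11 called elsewhere. It rose on re-feeding under PLIN5 ASO (0.40, SE 0.09, adjusted p = 0.00859), where 8.64% of all genes were called. It was lower with PLIN5 ASO in fasted liver (-0.42, SE 0.10, adjusted p = 0.0343), where 1.17% of all genes were called. These comparisons share the fasted PLIN5 ASO libraries, where Nfe2l2 stood at 66.8, 78.7, 65.0, 72.8 and 67.8 CPM, against 83.7, 91.5, 98.1 and 103 CPM in fasted control ASO. The fasted call was lost when any one of fasted control ASO 1, 3, 4 and 5 or fasted PLIN5 ASO 1, 3, 4 and 5 was left out. Foxo1 (0.43, adjusted p = 0.20), Tfeb (-0.43, adjusted p = 0.213) and Crtc2 (-0.23, adjusted p = 0.266) came next in fasted liver, and Ppara (-0.44, adjusted p = 0.0667), Foxo1 (-0.44, adjusted p = 0.0749) and Foxo3 (-0.40, adjusted p = 0.204) for re-feeding under PLIN5 ASO. The latter comparison had 3 calls without fasted PLIN5 ASO 3, re-fed PLIN5 ASO 1 or the clock-shifted libraries.

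Genes of the NRF2 and KEAP1 system, to which p62 connects, were called in 3 of 13 cases on re-feeding under control ASO (median -0.09). Of all genes tested, 13.2% were called there. Keap1 (-0.22, SE 0.06, adjusted p = 0.0301) and the glutathione synthesis gene Gclm (-0.27, SE 0.08, adjusted p = 0.0306) fell, and G6pdx, of the pentose phosphate pathway, rose from a low level (0.75, SE 0.23, adjusted p = 0.0403). Srxn1 stood at -0.34 (adjusted p = 0.0922). Limma on FPKM and the fit without fasted control ASO 4 called 0 of these, and the fits without fasted control ASO 3, re-fed control ASO 1 or re-fed control ASO 2 called 1. Under PLIN5 ASO, Nfe2l2 rose and Gclc fell (-0.50, SE 0.15, adjusted p = 0.0443) on re-feeding, 2 of 13 (8.64% of all genes). Hmox1 stood at -0.84 (adjusted p = 0.0735) and Osgin1 at -1.01 (adjusted p = 0.0754). Leaving out fasted PLIN5 ASO 3 or 5 or re-fed PLIN5 ASO 1, 2, 3 or 5 left 1 call. In fasted liver Nfe2l2 was the 1 gene of 13 called with PLIN5 ASO (1.17% of all genes). Keap1 (-0.12, adjusted p = 0.406), Abcc4 (-0.51, adjusted p = 0.464) and Hmox1 (0.36, adjusted p = 0.619) came next. None was called in re-fed liver or for the interaction.

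Across the 19 libraries the genes whose log2 CPM ran most nearly parallel to those of 3 members were listed as a description. All genes were measured in the same groups and libraries, so differences between groups or libraries enter every correlation. For Gabarapl1 these included Casp6 (Pearson's r 0.92), Ifngr2 (0.91), Rnf130 (0.91) and St6gal1 (0.90). For Map1lc3b they were Smim19 (0.94), Fbxo31 (0.93), Mt1 (0.92), Tapbp (0.91) and Bdh1 (0.90), and for Sqstm1 Tymp (0.90), Igsf11 (0.90), Ubxn1 (0.89), Crot (0.88) and Hsd3b7 (0.88). No other member was among the 5 nearest of any of the 3.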

How the data were processed

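For the 19 libraries, the authors deposited raw read counts and FPKM, each as 1 table with gene symbols as rows. Per the submitters' processing notes, HISAT2 2.0.2, Subread, edgeR, Cuffdiff 2.2.1 and FastQC were used, and GRCm38 and mm10 are the builds; which tool made which table is not said. RNA was prepared with the RNeasy kit, per the labels. The sources used here give neither the strand setting nor the handling of multiply matching reads.

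Differences were tested on the counts with edgeR 4.0.16 (R 4.3.3), using TMM normalization, filterByExpr by group (minimum count 10), 1 fit of all 19 libraries, the two-sided quasi-likelihood F test and Benjamini-Hochberg adjustment over 13293 genes, threshold 0.05. FPKM served for levels between genes and, as log2(FPKM + 1) or log2(FPKM + 0.1), for limma 3.58.1, for genes averaging 0.5 FPKM or more, or unfiltered. Other alternatives were DESeq2 1.42.0, RLE size factors, no filter or a stricter one (1 CPM in 4 libraries), only the groups compared, a replicate block and leaving out each library. Length offsets in 25 bins, a fit without the 4 clock-shifted libraries, and a fit that merged fasted control ASO 3 with 4 were chosen after seeing the data.

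The 10 members, the lists and the tests were chosen with earlier results of these data known. Named were all members, up to 4 genes with the smallest p per list with a call, and the 5 genes nearest to each of 3 members, of which 1 is not reported here. The main fit and some alternatives were tested on simulated counts. These held no clock-shifted libraries and none high in acute phase genes, so that test does not cover how such libraries move the calls. Totals of 24.9 to 66.9 M (mega) counts leave each member at least 546 counts, so precision is set by the spread between libraries. Positions are from GENCODE and promoters from RefSeq, matched by symbol.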

Additional observations from a re-analysis of the deposited data

Results flagged for a closer look

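Of 44 groups examined (the 10 genes and the total count in each of the 4 groups), 8 held a library whose gap to the nearest other took up more of the range than 95% of chance samples would show; chance alone gives about 1 in 20. Gabarap stood at 334.58 CPM in re-fed control ASO 4, with the others at 295 to 306 CPM. Sqstm1 stood at 369 CPM in fasted control ASO 1, against 316 to 325 CPM. Optn stood at 91.7 CPM in fasted PLIN5 ASO 3, against 112 to 119 CPM, and at 102 CPM in re-fed PLIN5 ASO 1, against 82.6 to 86.8 CPM. Tax1bp1 stood at 154 CPM in re-fed control ASO 1, against 139 to 142 CPM. Calcoco1 stood at 64.1 CPM in fasted control ASO 5, against 52.8 to 53.6 CPM. The total count was 28.2 M (mega counts) in fasted control ASO 5, against 33.1 to 33.9 M in the rest of that group. It was 66.9 M in re-fed PLIN5 ASO 5, against 24.9 to 28.4 M.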

How the results depend on the processing

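Gabarapl1 and Map1lc3a stayed lower on re-feeding under control ASO in 21 of 21 alternatives, Map1lc3b in 18 and Optn in 14. The number of members called there was 2 with limma on log2(FPKM + 1) without a filter. It was 6 by DESeq2, which added Calcoco1 and Tax1bp1, and 3 to 5 over the fits that left out 1 library. For re-feeding under PLIN5 ASO it was 1 in a fit of only the groups compared, with limma on log2(FPKM + 1) or log2(FPKM + 0.1), without the clock-shifted libraries and with the length trend taken out, 3 by DESeq2 and 0 to 2 over the fits that left out 1 library. In re-fed liver DESeq2 called 1 and the fits that left out 1 library 0 to 1; in fasted liver and for the interaction 0 to 0. Deviations of samples with the same replicate number correlated above 0.1 in 0 of 4, 3 of 5, 0 of 4 and 2 of 5 pairs. In re-fed liver these correlations ran from -0.15 to 0.17. No reference for unpaired samples was computed, so pairing by number was neither shown nor excluded. The main fit did not use the number. With a replicate block 5 members were called for re-feeding under control ASO and 1 (Gabarapl1) under PLIN5 ASO, and 253 genes in fasted liver, 290 in re-fed liver and 1 for the interaction.

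Over all genes, calls in fasted liver (156) became 432 by DESeq2, 33 with unfiltered FPKM and 36 with fasted control ASO 3 and 4 as 1 sample, and 22 to 186 over the fits that left out 1 library. In re-fed liver 183 became 4 with only the groups compared, 612 by DESeq2, 93 with unfiltered FPKM, 45 without the clock-shifted libraries, 53 with the length trend taken out and 45 to 341 leaving out 1 library. For re-feeding under control ASO 1759 became 1139 with fasted control ASO 3 and 4 as 1 sample, 1167 without the clock-shifted libraries and 1112 to 1835 leaving out 1 library; under PLIN5 ASO 1148 became 741 to 1170. For the interaction 3 became 95 by DESeq2, 0 with no filter on low counts, with limma in each of its settings, with fasted control ASO 3 and 4 as 1 sample and with the length trend taken out, and 0 to 3 leaving out 1 library. The causes were not tested.

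Signs turned for some differences, none of which passed in any setting run. Without the clock-shifted libraries these were Calcoco1 (re-fed -0.092, interaction -0.091), Optn (fasted 0.062, re-fed -0.091, interaction -0.15), Sqstm1 (re-fed 0.042, interaction 0.26), Gabarapl2 (fasted 0.048) and Gabarap (re-feeding under PLIN5 ASO -0.023). With limma on log2(FPKM + 1), filtered or not, and on log2(FPKM + 0.1), Gabarapl2 in fasted liver stood at 0.0065, 0.0065 and 0.0066 and Optn at 0.0013, 0.0013 and 0.0014. Gabarapl2 in fasted liver stood at 0.019 with fasted control ASO 3 and 4 as 1 sample and at 0.0058 with the length trend taken out, and Gabarap for re-feeding under PLIN5 ASO at -0.029 with that trend taken out. With a replicate block Gabarapl2 (interaction) stood at 0.011 and Sqstm1 (fasted) at 0.015. Leaving out 1 library gave ranges across 0 for Calcoco1 (fasted, -0.074 to 0.024), Gabarap (re-feeding under PLIN5 ASO, -0.057 to 0.042), Gabarapl2 (fasted, -0.034 to 0.039; interaction, -0.059 to 0.030; re-fed, -0.058 to 0.024), Map1lc3a (re-fed, -0.13 to 0.027), Optn (fasted, -0.044 to 0.052; re-fed, -0.0034 to 0.15) and Sqstm1 (fasted, -0.093 to 0.029; interaction, -0.087 to 0.036; re-fed, -0.10 to 0.0098). Depth does not limit these genes, with at least 546 counts in every library; the number and spread of libraries do.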
